A study of Homo sapiens with 6 samples.

Results

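The genes of the cytosolic ribosomal proteins encode the protein part of the ribosome, the particle that translates messenger RNA. They were taken here as the protein-coding genes whose GENCODE 29 symbol is RPSA, RPLP0, RPLP1, RPLP2 or RPL or RPS followed by a number with a short suffix, and they numbered 84 of the 65198 gene rows measured. Of these, 77 encode proteins of the mature ribosome and 7 are paralogs of low or tissue-limited use. The cells were MDA-MB-231, an established line of basal-like breast adenocarcinoma, and their poly(A) RNA was sequenced in 6 libraries. One group of 3 libraries came from cells carrying a tetracycline-inducible hairpin against the long noncoding RNA HOTAIR (shHOTAIR), and the other 3 came from cells carrying an inducible hairpin of scrambled sequence (shCtrl). Both groups received 1 µg/ml doxycycline for 96 h, so the drug is shared by control and knockdown. The labels name 1 derivative per hairpin, so a p-value sets the repeats of 1 derived line against those of 1 other line. Values are FPKM, fragment counts scaled for transcript length and for library size, so that levels of different genes can be set side by side.

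Each ribosome has a small subunit, which reads the message, and a large subunit, which joins the amino acids, and nearly every ribosomal protein is present once per particle. The messages of these proteins are among the most abundant in dividing cells. Most start with a C followed by a run of pyrimidines, the terminal oligopyrimidine (TOP) tract, through which mTOR signalling and the binding protein LARP1 set their translation and stability together. Many of the genes also hold small nucleolar RNA (snoRNA) genes in their introns.

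The starts of the genes whose values carry the results below show this shared feature and its exceptions. The lines give 10 bases before the annotated start and 20 bases from it, 5′ to 3′ on the transcribed strand, from RefSeq on GRCh38.p14. Capitals mark a C at the first transcribed base followed by at least 4 pyrimidines, and all of that run. The first 5 genes had the largest falls, the next 3 were the genes that rose, RPLP0 stands for the stalk of the large subunit, and the last 2 show a mature gene beside its paralog.
RPL17: ttccctaagcagcctgaggtgagtgtttct
RPS24: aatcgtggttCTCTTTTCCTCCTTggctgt
RPL27A: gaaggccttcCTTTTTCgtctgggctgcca
RPS13: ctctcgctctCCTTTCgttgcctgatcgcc
RPL13A: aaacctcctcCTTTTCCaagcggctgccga
RPL24: atgattctctCTTTCTTTTCgccatctttt
RPL39: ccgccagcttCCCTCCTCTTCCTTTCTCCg
RPL22: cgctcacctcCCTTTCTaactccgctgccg
RPLP0: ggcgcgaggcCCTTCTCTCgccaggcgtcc
RPS27: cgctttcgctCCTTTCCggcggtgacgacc
RPS27L: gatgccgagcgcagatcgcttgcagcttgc

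They lie at chr18:49492446-49492475 (minus strand) for RPL17, chr10:78033853-78033882 (plus) for RPS24, chr11:8682782-8682811 (plus) for RPL27A, chr11:17077648-17077677 (minus) for RPS13 and chr19:49487598-49487627 (plus) for RPL13A. The 3 genes that rose have their starts at chr3:101686699-101686728 (minus) for RPL24, chrX:119791611-119791640 (minus) for RPL39 and chr1:6199576-6199605 (minus) for RPL22. The remaining windows are chr12:120201092-120201121 (minus) for RPLP0, chr1:153990752-153990781 (plus) for RPS27 and chr15:63157458-63157487 (minus) for RPS27L. Promoter entries were found for 67 of the 84 genes, and 47 of the 67 (70.1%) had the tract at an annotated start, against 5.14% of 27305 genes in the same table. Among proteins of the mature ribosome 46 of 62 had it (74.2%), and among the paralogs 1 of 5 had it, RPL22L1. No match says only that these letters are not at the annotated first base.

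HOTAIR (chromosome 12, 53962308 to 53974956, minus strand), the gene the hairpin was made against, was near 0 in all 6 libraries. Its FPKM was 0, 0.0128 and 0.0132 in shCtrl 1, 2 and 3 and 0, 0 and 0.0113 in shHOTAIR 1, 2 and 3 (exact two-sided permutation p = 0.4, where 3 libraries against 3 cannot go below 0.1). The knockdown could therefore not be checked at this depth. Markers of the line were present, with VIM at 361 to 977 FPKM and CD44 at 430 to 515, and the luminal markers ESR1, PGR, CDH1 and EPCAM had means under 1 FPKM. Of the markers of other cells, 5 of 5 leukocyte genes, 4 of 4 endothelial genes and 4 of 5 fibroblast genes had means under 1 FPKM. The summed fibroblast markers were 1.44 to 2.30 in shCtrl and 3.62 to 4.06 in shHOTAIR. COL1A1 made up most of this sum, with a mean of 1.33 FPKM in shCtrl and 3.51 in shHOTAIR. DCN, LUM and COL1A2 had lower means in shHOTAIR and PDGFRA a higher one. The part of such cells in the results below was not tested. Total fragment numbers are not known. Read from the smallest steps between low values, 1 fragment was worth 1, 0.812 and 0.839 relative units in shCtrl and 0.664, 0.595 and 0.717 in shHOTAIR, which puts the greater depth in shHOTAIR.

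The ribosomal protein messages made up a smaller share of the transcriptome in shHOTAIR cells. Their summed level was 74665, 67907 and 77777 FPKM in shCtrl 1, 2 and 3 and 53182, 59863 and 67572 FPKM in shHOTAIR 1, 2 and 3. As a share of the FPKM of all nuclear protein-coding genes this was 10.2%, 9.43% and 10.5% in shCtrl (10.1% ± 0.563, SD, n = 3) and 7.75%, 8.58% and 9.20% in shHOTAIR (8.51% ± 0.726, SD, n = 3). The groups did not overlap in either measure, although the highest shHOTAIR library and the lowest shCtrl library lay close together. In bulk RNA, a smaller number of cells rich in these messages and less of the message in each cell cannot be told apart.

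Of the 84 genes, 82 reached a mean of 1 FPKM and were tested with limma on log2(FPKM + 1) among 15934 genes. The 2 that did not are paralogs of muscle and testis. RPL3L, the muscle form of RPL3, was at 0.159, 0.224 and 0.210 FPKM in shCtrl and 0.199, 0.105 and 0.0380 in shHOTAIR, and RPL10L, the testis form of RPL10, was listed at 0 in every library. Among the tested genes 74 of 82 (90.2%) had a log2 change below 0, against 53.5% of all genes tested. The median log2 change was -0.31, with the middle of the distribution from -0.39 to -0.19, while the median of all genes tested was -0.03. The 3797 genes that passed the test among all genes tested had a median absolute log2 change of 0.54. Those genes were selected by passing, so their median is not like the median of all 82.

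Single-gene calls were few. At a limma adjusted p under 0.05, 14 of the 82 genes fell (17.1%), against a background of 12.4% of all genes tested, and 3 rose (3.66%), against 11.5%. The limma calls in either direction were 17 of 82, against 23.8% of all genes tested. The genes that fell were RPL17, RPS24, RPL27A, RPS13, RPL13A, RPL29, RPS20, RPS10, RPL7L1, RPL9, RPS27A, RPLP0, RPL27 and RPL7, and those that rose were RPL24, RPL39 and RPL22. A further 14 genes below 0 had an adjusted p between 0.05 and 0.1. All 3 shHOTAIR values lay below all 3 shCtrl values in 39 genes (47.6%, background 23.2%) and above them in 4 (4.88%, background 19.9%). The share that fell was thus near the background, while the share with a log2 change below 0 was well above it. RPL17, RPS24, RPS27A and RPL7 kept their calls whichever library was left out, and RPL22, RPL27 and RPS20 lost theirs each time. The count of falls was 6 without shCtrl 1, 5 without shCtrl 3, 9 without shHOTAIR 1 and 5 without shHOTAIR 2. The count of rises was 1 without shHOTAIR 1 or shHOTAIR 3, and by limma it was 0 without shCtrl 1, shCtrl 2 or shHOTAIR 2, where 5, 4 and 3 genes were higher at an unadjusted p under 0.05.

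**Figure D1:**
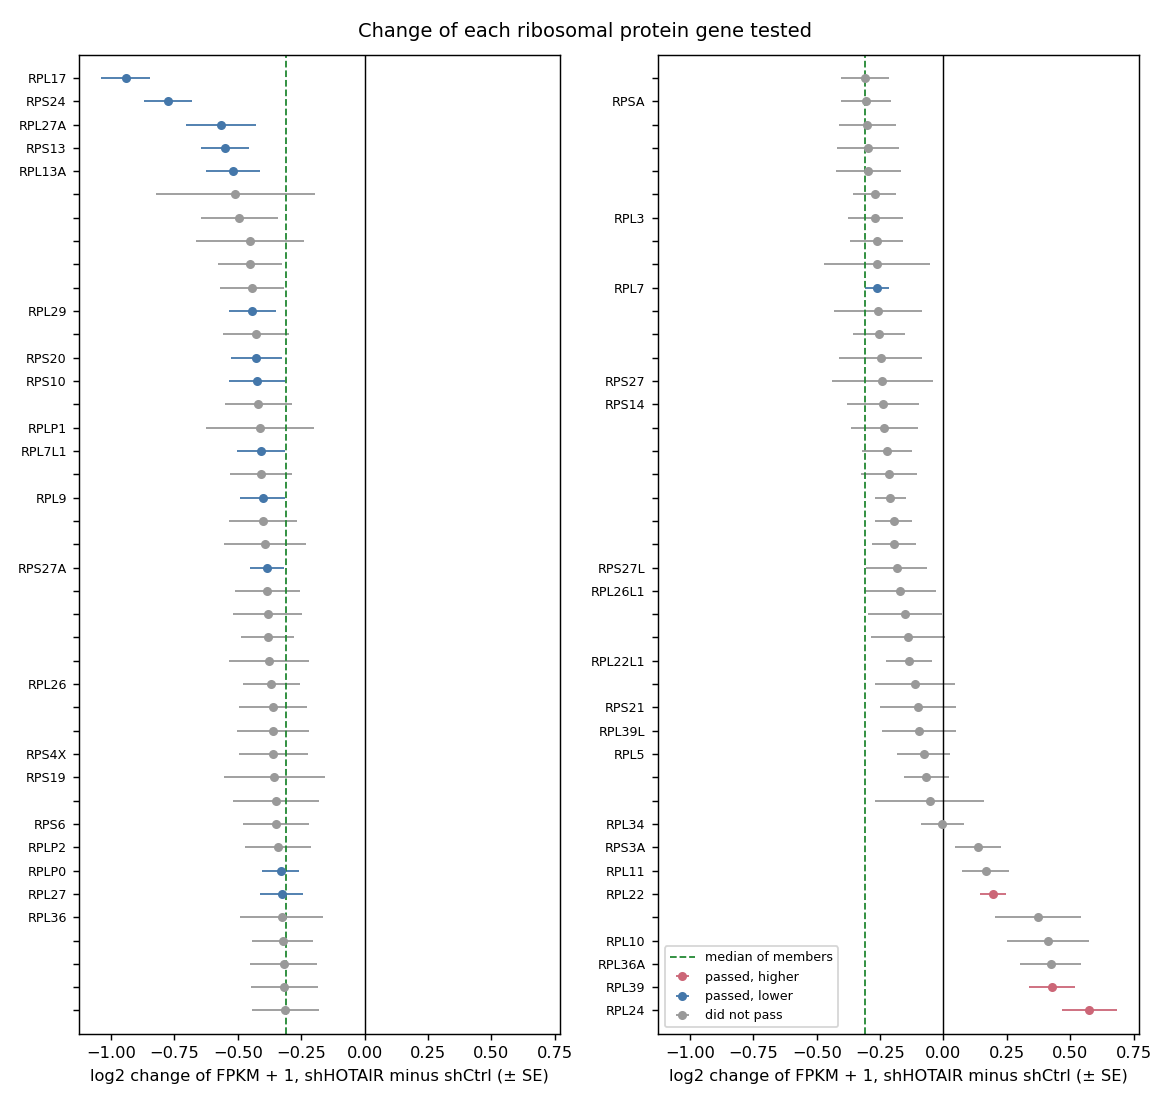
Log2 change (shHOTAIR minus shCtrl, on log2(FPKM + 1)) of each of the 82 tested ribosomal protein genes in order of size, with its standard error and selected genes labelled. Coloured points passed the limma test: 14 fell and 3 rose, and 74 of the 82 lie below 0 around a median of -0.31.

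The genes moved as a narrow band with a few outliers. The log2 change of 63 of the 82 lay within 0.2 of their median (76.8%), while 47.6% of protein-coding genes tested lay within 0.2 of their own median of -0.03. The standard error of a single gene's change ran from 0.0488 to 0.315 with a median of 0.125, a little above the 0.0971 of protein-coding genes in general. The extremes were RPL17 at -0.94 and RPL24 at 0.58.

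The replicates also differed as a block within each group. Taking each gene's deviation from its own mean over the 6 libraries, the median deviation of the ribosomal protein genes was 0.17, 0.03 and 0.25 (log2) in shCtrl 1, 2 and 3 and -0.32, -0.12 and 0.01 in shHOTAIR 1, 2 and 3. The library shHOTAIR 1 was the lowest of the 6 for 58 genes, and shCtrl 3 was the highest for 52. By the worth of 1 fragment, every shHOTAIR library was deeper than every shCtrl library, so depth went with the hairpin. The part of depth in the difference was not tested. Leaving out each library in turn gave medians between -0.38 and -0.23.

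**Figure D2:**
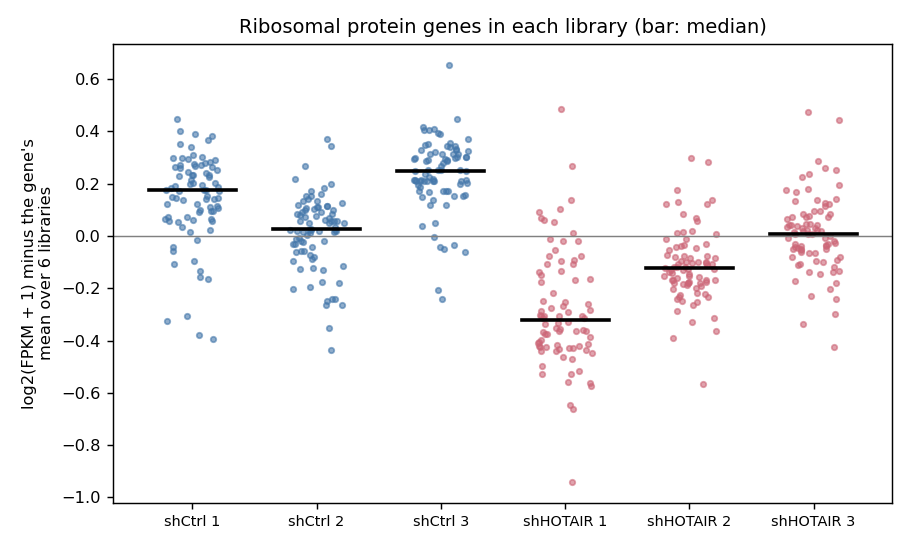
Deviation of each tested ribosomal protein gene from its mean over the 6 libraries (log2 scale), by library, with the median of each library marked. The medians run from 0.25 in shCtrl 3 to -0.32 in shHOTAIR 1, and shCtrl 2 (0.03) and shHOTAIR 3 (0.01) lie nearly level.

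In the large subunit 9 of 50 tested genes fell (18%, background 12.4%) and 3 rose (6%, background 11.5%), with a median log2 change of -0.28. The largest fall was that of RPL17 (chromosome 18, 49488453 to 49492523, minus strand), which sits near the mouth of the tunnel through which new proteins leave. Its level was 605, 598 and 727 FPKM in shCtrl and 344, 312 and 344 FPKM in shHOTAIR. The groups were far apart, with means of 643 ± 72.7 and 333 ± 18.7 FPKM (SD, n = 3). The log2 change was -0.94 (SE 0.0961, limma adjusted p = 0.00251), and the call was kept in all 19 alternative analyses. The readthrough row RPL17-C18orf32, which shares exons with RPL17, went from a mean of 14.4 to 8.30 FPKM (adjusted p = 0.0935), and how reads were divided between these rows is not known.

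RPL27A and RPL13A, the next largest falls of the large subunit, both host snoRNA genes. RPL27A (chromosome 11) was at 851, 756 and 828 FPKM in shCtrl and 451, 570 and 637 FPKM in shHOTAIR (log2 change -0.57, adjusted p = 0.0351). The shHOTAIR values were more scattered than the shCtrl values and all lower. Its adjusted p was 0.115 without shCtrl 1, 0.0780 without shCtrl 2, 0.112 without shCtrl 3 and 0.0931 without shHOTAIR 2. RPL13A (chromosome 19), also known as a part of an interferon-induced complex that blocks translation, was at 306, 271 and 322 FPKM in shCtrl and 186, 211 and 231 FPKM in shHOTAIR (log2 change -0.52, adjusted p = 0.0206). It too did not overlap between groups, and its adjusted p was 0.0752 without shCtrl 1, 0.0724 without shCtrl 3 and 0.0695 without shHOTAIR 2.

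The acidic stalk, which recruits translation factors to the large subunit, consists of RPLP0 and copies of RPLP1 and RPLP2. RPLP0 was at 1294, 1233 and 1328 FPKM in shCtrl and 941, 1055 and 1073 FPKM in shHOTAIR, and it fell (log2 change -0.33, adjusted p = 0.0263). Without shCtrl 1, shCtrl 2, shCtrl 3 or shHOTAIR 2 its adjusted p was 0.0829, 0.0597, 0.0880 and 0.0641. RPLP2 was at 2655, 2923 and 3282 FPKM against 1999, 2467 and 2539 (log2 change -0.34, adjusted p = 0.116). RPLP1 was at 550, 498 and 504 FPKM against 283, 407 and 506 (log2 change -0.41, adjusted p = 0.219). The groups were clear of each other in RPLP0 and RPLP2 and overlapped in RPLP1.

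RPL5 and RPL11 enter the ribosome together with a small ribosomal RNA and, when free, bind MDM2 and restrain it from degrading p53. Neither passed the limma test, and neither had an unadjusted p under 0.05. RPL5 was at 1175, 1376 and 1517 FPKM in shCtrl and 1245, 1302 and 1285 FPKM in shHOTAIR (log2 change -0.08, adjusted p = 0.618). RPL11 was at 278, 245 and 299 FPKM in shCtrl and 285, 326 and 309 FPKM in shHOTAIR (log2 change 0.17, adjusted p = 0.262). The values of the groups overlapped in both genes.

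The 3 genes that rose all belong to the large subunit. RPL24, a protein at the interface with the small subunit (chromosome 3, 101681091 to 101686782, minus strand), was at 561, 543 and 600 FPKM in shCtrl and 738, 852 and 964 FPKM in shHOTAIR (log2 change 0.58, SE 0.109, adjusted p = 0.0160). Every shHOTAIR library exceeded every shCtrl library, and the adjusted p was 0.0626 without shCtrl 1, 0.0640 without shCtrl 2 and 0.0628 without shHOTAIR 2.

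RPL39, a small protein lining the exit tunnel (chromosome X), was at 1070, 1115 and 1296 FPKM against 1616, 1476 and 1579 (log2 change 0.43, adjusted p = 0.0236). RPL22, a protein that also binds structured messages and is dispensable for translation in many cells (chromosome 1), was at 118, 125 and 129 FPKM against 143, 139 and 145 (log2 change 0.20, adjusted p = 0.0427). The groups did not overlap in either gene. The call of RPL39 was kept only without shCtrl 3, and its adjusted p was 0.0748 without shCtrl 1, 0.0848 without shCtrl 2, 0.0688 without shHOTAIR 1, 0.0570 without shHOTAIR 2 and 0.0728 without shHOTAIR 3. That of RPL22 was lost when any 1 library was left out, with adjusted p from 0.0513 (without shCtrl 3) to 0.0909 (without shHOTAIR 3).

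**Figure D3:**
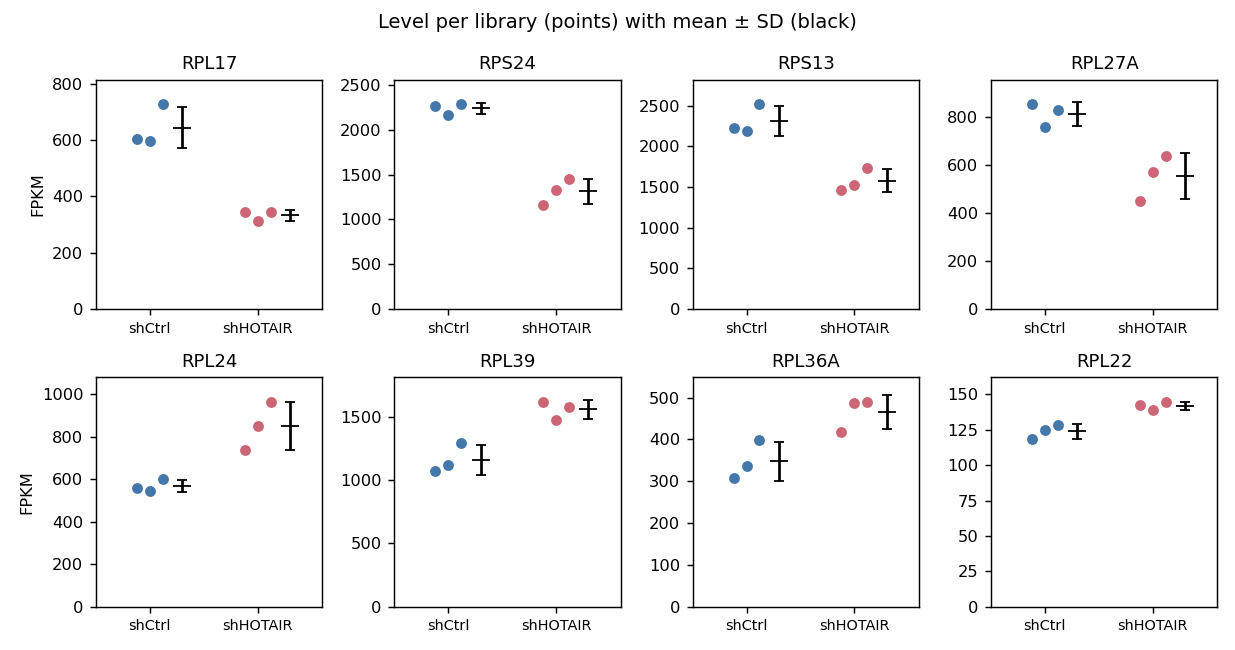
FPKM of named ribosomal protein genes in each library, shCtrl and shHOTAIR side by side, each panel starting at 0 with its own scale and the group mean ± SD in black. In RPL17 the means are 643 and 333 FPKM, and in RPL24 they are 568 and 851 FPKM.

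In the small subunit 5 of 32 tested genes fell (15.6%, near the background of 12.4%) and none rose by limma (background 11.5%), nor was any higher at an unadjusted p under 0.05. Without shCtrl 3 or shHOTAIR 1, 1 gene was higher at an unadjusted p. The median log2 change was -0.35. RPS24 (chromosome 10, 78033732 to 78056813, plus strand), a gene mutated in Diamond-Blackfan anaemia, was at 2259, 2166 and 2282 FPKM in shCtrl and 1160, 1330 and 1445 FPKM in shHOTAIR. The shCtrl libraries were close to each other, at 2236 ± 61.5 (SD, n = 3), and the highest shHOTAIR library was well under them. The log2 change was -0.77 (SE 0.0938, limma adjusted p = 0.00404), and the call was kept in 18 of 19 alternatives.

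RPS13 (chromosome 11), a protein of the platform of the small subunit, was at 2226, 2183 and 2516 FPKM in shCtrl and 1466, 1529 and 1733 FPKM in shHOTAIR. The groups were clear of each other, and the log2 change was -0.55 (SE 0.0953, adjusted p = 0.0121). Its adjusted p was 0.0558 without shHOTAIR 2. RPS10, RPS20 and RPS27A also fell, with log2 changes of -0.42, -0.43 and -0.39, though RPS10 kept its call only when shHOTAIR 3 was the library left out.

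The small-subunit proteins best known from disease or signalling were lower in value without passing the test. RPS6, the substrate of S6 kinase, was at 584, 485 and 553 FPKM in shCtrl and 360, 440 and 480 FPKM in shHOTAIR (log2 change -0.35, adjusted p = 0.112). RPS19, the gene most often mutated in Diamond-Blackfan anaemia, was at 827, 664 and 867 FPKM against 464, 670 and 730 (log2 change -0.36, adjusted p = 0.259). RPS14, whose loss marks the myelodysplasia with a deletion on chromosome 5, was at 613, 475 and 680 FPKM against 461, 500 and 523 (log2 change -0.24, adjusted p = 0.283).

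RPS6 did not overlap between groups, while RPS19 and RPS14 did, each through a low shCtrl 2. RPSA, known also as the laminin receptor, was at 351, 366 and 414 FPKM against 274, 329 and 311 (log2 change -0.31, adjusted p = 0.0766). Of the 19 Diamond-Blackfan genes 3 fell (15.8%, near the background of 12.4%) and none rose by limma. None was higher at an unadjusted p under 0.05 with all libraries and 1 was without shCtrl 3, and the median log2 change was -0.32.

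The most abundant members had the same sign with wide spread. RPL36, the highest, was at 3621, 3320 and 3801 FPKM in shCtrl and 2305, 2869 and 3507 in shHOTAIR (log2 change -0.33, adjusted p = 0.21). RPS21, the second in level, was at 3288, 2464 and 3377 FPKM against 3049, 2503 and 2910 (log2 change -0.10, adjusted p = 0.67). Both overlapped between groups. Tested members ranged from 17.1 to 3237 FPKM in mean level, and 75 of them were among the 1000 protein-coding genes with the highest mean. Across the 82 genes the log2 change had little relation to mean level (Pearson r = -0.18, Spearman rho = -0.23), transcript length (0.03 and 0.05) or the share of pseudogene rows (-0.04 and -0.02). These are descriptions over genes of the same 6 libraries.

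The paralogs had lower mean levels than their partners, and none rose. RPL7L1, a relative of RPL7 that acts in ribosome assembly, was at 188, 209 and 226 FPKM in shCtrl and 167, 160 and 142 FPKM in shHOTAIR and fell (log2 change -0.41, adjusted p = 0.0310). Its partner RPL7 also fell (log2 change -0.26, adjusted p = 0.0152). The call of RPL7L1 was lost without any 1 library except shCtrl 1, with adjusted p from 0.0501 without shHOTAIR 1 to 0.0933 without shCtrl 2.

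The other expressed paralogs did not pass. RPL22L1, which is under negative control by RPL22 in other settings, was at 89.2, 85.3 and 100.1 FPKM against 85.8, 75.4 and 88.2 (log2 change -0.14, adjusted p = 0.33), while RPL22 rose. RPS27L, a p53 target, was at 21.3, 23.1 and 26.2 FPKM against 22.1, 22.1 and 17.6 (log2 change -0.18, adjusted p = 0.323), beside -0.24 for RPS27. RPL39L, the testis form of RPL39, was at 15.8, 16.0 and 21.4 FPKM against 18.7, 15.7 and 14.8 (log2 change -0.10, adjusted p = 0.672). In these 3 the groups overlapped. RPL26L1 had a log2 change of -0.17 (adjusted p = 0.437), beside -0.37 for RPL26 (adjusted p = 0.0666).

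The genes with a log2 change above 0 lay among neighbours that were also above 0. For each gene the median log2 change of its 50 nearest tested protein-coding neighbours was taken as the local level. It was above 0 for all 8 ribosomal protein genes with a log2 change above 0, from 0.24 to 0.65 with a median of 0.44. For the 74 genes below 0 it ran from -0.47 to 0.33 with a median of -0.09. Across the 82 genes the own change and that of the neighbours had a Pearson r of 0.866 and a Spearman rho of 0.587, given as a description because neighbours share libraries and, in places, windows.

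Of the genes that rose, RPL24 had neighbours at 0.50, RPL39 at 0.65 and RPL22 at 0.24. The X chromosome carries 4 of the genes. RPL36A was at 308, 337 and 399 FPKM in shCtrl and 418, 488 and 489 FPKM in shHOTAIR (log2 change 0.42, adjusted p = 0.0538), with neighbours at 0.63. RPL10, at 398, 283 and 323 FPKM against 397, 416 and 519 (log2 change 0.41, adjusted p = 0.129), had neighbours at 0.60. Only RPS4X, with neighbours at -0.06, was below 0. It was at 713, 702 and 732 FPKM against 486, 518 and 687 (log2 change -0.36, adjusted p = 0.117), and without shHOTAIR 3 it passed the test (log2 change -0.51, adjusted p = 0.0118).

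At the other end, the 2 largest falls also lay among neighbours below 0. RPL17 had neighbours at -0.45 and RPS24 at -0.46, and RPL7L1 at -0.47. The neighbours of RPS13, RPL27A and RPL13A were nearer 0, at -0.12, -0.12 and -0.16.

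**Figure D4:**
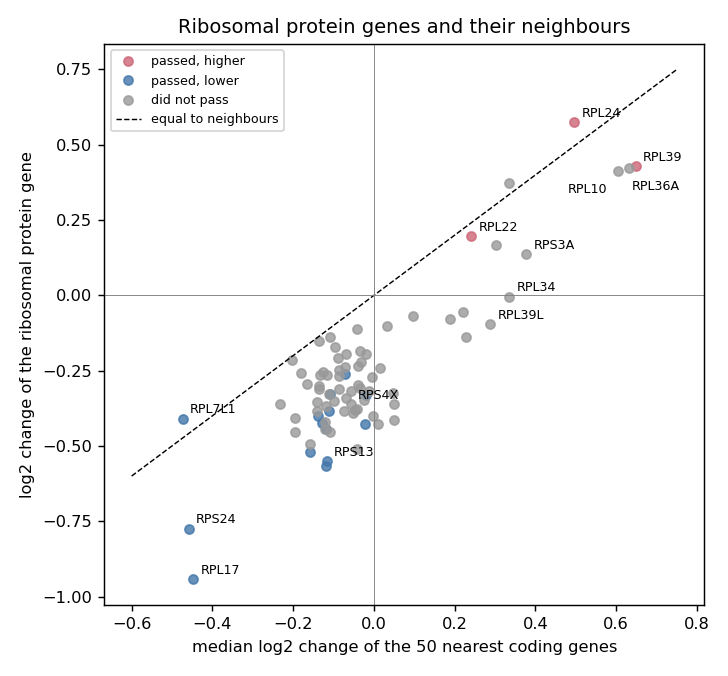
Log2 change of each of the 82 tested ribosomal protein genes against the median log2 change of its 50 nearest tested protein-coding neighbours, with a dashed line of equality. The gene's own change goes with the local level (Pearson r = 0.866), and 79 of 82 lie below the line.

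When the neighbours' median was subtracted in each library, the genes drew together. The standard deviation of the log2 change over the 82 genes went from 0.249 to 0.125, the median was -0.25, and 79 of 82 genes were below 0, against 48.3% of all genes tested in the same way. Of the 3 above 0, RPL24 stood at 0.08 and RPL7L1 at 0.06. By limma 5 genes were called lower (background 6.84%) and 0 higher (background 7.64%), and at an unadjusted p under 0.05 32 were lower and 0 higher, against 14.7% and 15.8% of all genes tested.

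RPL17 (-0.50, adjusted p = 0.0237), RPS13 (-0.43, adjusted p = 0.0493), RPL13A (-0.36, adjusted p = 0.0146), RPL29 (-0.32, adjusted p = 0.0403) and RPLP0 (-0.31, adjusted p = 0.0300) were the 5 called lower. RPS24 did not pass after centring (-0.32, adjusted p = 0.0736), nor did RPL27A (-0.45, adjusted p = 0.0843). RPL24 stood at 0.08 (adjusted p = 0.68), and RPL39 at -0.22 (adjusted p = 0.147) and RPL22 at -0.04 (adjusted p = 0.592) changed sign. Of the genes above 0 that had not passed, RPL36A (-0.21, adjusted p = 0.358) and RPL10 (-0.19, adjusted p = 0.466) also changed sign. So did RPL11 (-0.14, adjusted p = 0.415) and RPS3A (-0.24, adjusted p = 0.195).

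A split by local level, chosen after the values were seen, used the same changes and neighbours' medians without subtraction. It is a description and not a separate check. For 58 ribosomal protein genes the neighbours' median lay between -0.15 and 0.15, and all 58 had a log2 change below 0, with a median of -0.32. Among the 7643 protein-coding genes in such surroundings 58.6% were below 0, with a median of -0.05. The 13 ribosomal protein genes with neighbours above 0.15 had a median of 0.17, and the 11 with neighbours below -0.15 had a median of -0.41.

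Median changes were alike with and without a TOP tract at an annotated start, and with and without a snoRNA gene. A pyrimidine run a few bases from the annotated start, as in RPL19, RPL4 and RPL9, was counted as no tract. The comparison therefore cannot say whether genes with and without a TOP tract differ. The 47 tested genes with the tract at an annotated start had a median log2 change of -0.31 and the 19 without it -0.32. The tract was present in all 3 genes that rose and in 8 of the 12 genes that fell and had a promoter entry. The 28 snoRNA hosts had a median of -0.31 (5 fell, 1 rose), and the 54 tested genes without one had -0.31 (9 fell, 2 rose).

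FAU and RPL36AL, ribosomal protein genes that the symbol rule leaves out, had log2 changes below 0. FAU, which encodes a small-subunit protein fused to a ubiquitin-like protein, was at 740, 681 and 787 FPKM in shCtrl and 486, 548 and 591 FPKM in shHOTAIR and fell (log2 change -0.44, adjusted p = 0.0245). Without shCtrl 1, shCtrl 3 or shHOTAIR 2 its adjusted p was 0.0806, 0.0808 and 0.0752. RPL36AL had a log2 change of -0.29 (adjusted p = 0.143). The groups did not overlap in either of them.

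The other genes of translation had calls in both directions, and these are given beside the background of 12.4% lower and 11.5% higher. Among 23 genes of translation factors and related proteins known to carry TOP tracts, 7 fell (30.4%) and 1 rose (4.35%), with a median log2 change of -0.23. EEF1G, a subunit of the elongation factor that loads aminoacyl-tRNA, fell from 625 ± 26.3 to 488 ± 6.23 FPKM (SD, n = 3, log2 change -0.36, adjusted p = 0.00735). EIF2S3, a subunit of the initiation factor that carries the initiator tRNA, rose from 393 ± 8.51 to 609 ± 45.7 FPKM (log2 change 0.63, adjusted p = 0.00320). VIM, a TOP message for an intermediate filament protein, had the largest fall of this list, from 948 ± 37.1 to 393 ± 27.3 FPKM (log2 change -1.27, adjusted p = 0.000616). Its neighbours were at -0.75, and after centring it stood at -0.52 (adjusted p = 0.0114).

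Of 30 other initiation, elongation and release factors 4 rose and 4 fell (13.3% each), with a median of -0.01. EIF4G1, the scaffold of the cap-binding complex, rose (log2 change 0.51, adjusted p = 0.00313), as did EIF2B5 (0.39), while EIF3A fell (-0.41). The other rises were EIF1AX (0.55) and EIF4E (0.40) and the other falls EIF5B (-0.23), EIF2B4 (-0.40) and EIF3D (-0.26), each of which lost its call without at least 2 of the libraries left out in turn, with a largest adjusted p of 0.0575, 0.0652, 0.0799, 0.116 and 0.111. Of 57 ribosome assembly factors 8 rose (14.0%) and 12 fell (21.1%, median -0.08), among them the helicase DDX10, which fell from 109 ± 1.89 to 52.4 ± 0.738 FPKM (log2 change -1.04, adjusted p = 0.000345), MAK16, which fell (-0.42), and UTP14A, which rose (0.60).

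Of the 8 core proteins of snoRNA particles 3 rose and 3 fell (37.5% each). The rises were GAR1 (0.52), DKC1 (0.49) and NOP56 (0.32), and the falls were NOP10 (-0.26), FBL (-0.37) and SNU13 (-0.32), with a largest adjusted p of 0.0510, 0.122 and 0.126 when 1 library was left out. RNA polymerase I and its factors had 1 rise (5%) and 3 falls (15.0%) among 20 genes (median -0.10). POLR2H rose (0.37), and POLR1C (-0.74), TAF1D (-0.42) and POLR1B (-0.31, largest adjusted p 0.117 when 1 library was left out) fell. Without shCtrl 1 or shCtrl 2 the adjusted p was 0.0510 and 0.0519 for NOP56 and 0.0557 and 0.0569 for TAF1D, which was at 0.0574 without shHOTAIR 2. After subtraction of the neighbours' median DKC1, NOP56 and UTP14A, all in surroundings above 0, stood at -0.12, -0.07 and -0.08, and EIF3A stood at 0.07. Of the genes that kept their sign, EEF1G (-0.16, adjusted p = 0.139), EIF2B5 (0.11, adjusted p = 0.193), GAR1 (0.18, adjusted p = 0.101), POLR2H (0.09, adjusted p = 0.379) and TAF1D (-0.24, adjusted p = 0.0709) did not pass after it. Nor did EIF4E (0.03, adjusted p = 0.891), EIF5B (-0.09, adjusted p = 0.41), EIF2B4 (-0.24, adjusted p = 0.181) and EIF3D (-0.20, adjusted p = 0.0637). FBL (-0.29, adjusted p = 0.0609), SNU13 (-0.21, adjusted p = 0.0934) and POLR1B (-0.21, adjusted p = 0.0971) did not pass either. EIF1AX (0.35, adjusted p = 0.0471) and NOP10 (-0.31, adjusted p = 0.0265) did.

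Of 17 tested genes listed as regulators of the translation of ribosomal protein messages 3 rose (17.6%) and 2 fell (11.8%), with a median of -0.06. PDCD4, an inhibitor of the initiation helicase, fell (log2 change -0.62, and -0.19 with adjusted p = 0.119 after centring). AKT1S1, an inhibitory subunit of the mTOR complex, fell (-0.34, with adjusted p of 0.0509, 0.0569 and 0.0558 without shCtrl 1, shCtrl 3 and shHOTAIR 2, and -0.18 with adjusted p = 0.114 after centring). MTOR rose (0.21, adjusted p = 0.0350, and 0.0541 to 0.103 when any 1 library was left out). TSC2, an inhibitor upstream of mTOR, also rose (0.35, adjusted p = 0.0366, and 0.0514 to 0.115 when any 1 library was left out), and its change after centring was 0.49 (adjusted p = 0.0232). RPTOR, the subunit of the mTOR complex that binds its substrates, rose as well (0.25, adjusted p = 0.0395, and up to 0.108 when 1 library was left out). After centring RPTOR stood at 0.33 (adjusted p = 0.102) and MTOR at -0.03 (adjusted p = 0.767). Genes with an MRPL or MRPS symbol, taken as those of the mitochondrial ribosome, had 4 rises (5.13%) and 11 falls (14.1%) among 78 (median -0.12). That ribosome is made from other genes and works on other messages. Whether each symbol, MRPS36 included, stands for one of its proteins was not checked. MRPL43 (-0.81), MRPS16 (-0.82) and MRPL14 (-0.76) had the smallest p and stood at -0.26, -0.30 and -0.30 after centring, none past the test, while MRPS36 had the largest fall (-0.86, adjusted p = 0.0116, and -0.75 with adjusted p = 0.0292 after centring). The rises were MRPS11 (0.49), MRPS26 (0.45), MRPS6 (0.28) and MRPL44 (0.23), with a largest adjusted p of 0.0821, 0.134, 0.111 and 0.138 when 1 library was left out. After centring these rises stood at 0.12, 0.06, -0.02 and 0.02, none past the test. Of these 7 lists the TOP factors had the lowest median. A log2 change below 0 was seen in 82.6% of the TOP factors, 75% of RNA polymerase I and its factors and 74.4% of the mitochondrial list. The share was 61.4% of the assembly factors, 58.8% of the regulators and 50% of each of the remaining lists, against 53.5% of all genes tested. Differences between lists were not tested.

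**Figure D5:**
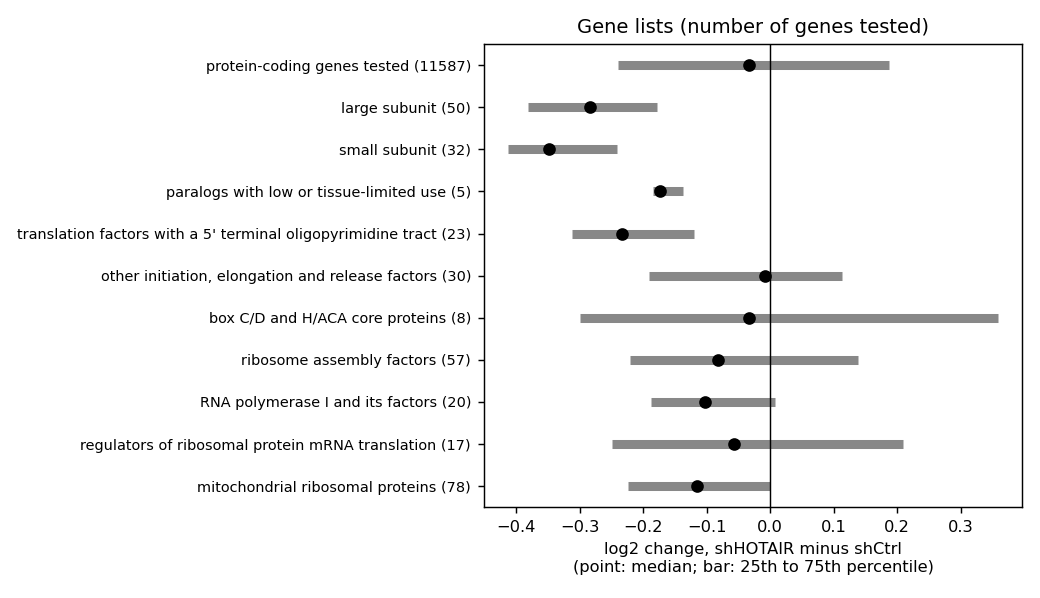
Median log2 change (point) and 25th to 75th percentile (bar) of the tested genes of each list, with the number of genes in brackets; the expressed paralogs are also counted in their subunit. The large subunit (-0.28), the small subunit (-0.35) and the TOP factors (-0.23) lie farthest left of all protein-coding genes tested (-0.03). Also left of these, by less, are the paralogs (-0.17), mitochondrial ribosomal proteins (-0.12), RNA polymerase I (-0.10), assembly factors (-0.08) and regulators (-0.06).

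Shared sequence limits some of these values. Ribosomal protein genes have many processed pseudogenes, whose rows can take or give reads. The rows of a gene's pseudogenes summed to more than 10% of the gene in 3 cases, RPS4X (32.8%), RPSA (17.2%) and RPS27A (12.6%). For RPS4X this was mostly RPS4XP22, whose mean went from 237 to 179 FPKM beside 716 to 564 FPKM for RPS4X. RPS10 shares exons with the readthrough row RPS10-NUDT3, which went from 41.7 to 25.7 FPKM (adjusted p = 0.0941). RPL27A overlaps ST5 on the opposite strand (mean 18.9 FPKM), and it is not known if strand was used in counting. With the pseudogene rows added to their genes the median log2 change was again -0.31.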

How the data were processed

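RNA-seq libraries of poly(A) RNA, 3 of shCtrl and 3 of shHOTAIR cells, were grouped by the hairpin in their labels. The authors deposited FPKM values per gene. TopHat2 2.0.13, DESeq and GRCh38 are named in the submitters' processing notes, with no role or order, and with the counting program, annotation and strand setting not given in the sources used here. Of the 65198 rows, 56807 matched GENCODE 29 by identifier. Fragment totals are unknown, so no counting intervals are given. Relative depth was read as the commonest ratio of low values (0.001 to 0.1 FPKM) to shCtrl 1.

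Values were analysed as log2(FPKM + 1), and fold changes on that scale understate those of low genes. The 15934 genes whose mean reached 1 FPKM were fitted with limma 3.58.1 in R 4.3.3 (intensity trend, no replicate block, Benjamini-Hochberg adjustment over all of them, threshold 0.05). The script was tested on simulated data. Tables and figures used Python 3.11.15. Regional centring subtracted, in each library, the median deviation of the 50 nearest tested protein-coding genes. TOP tracts (a C at the annotated start followed by at least 4 pyrimidines, transcribed strand) were sought in RefSeq promoters of GRCh38.p14, with genes matched by symbol. Gene lists were written from general knowledge.

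The members and lists were chosen with earlier results of these data known. Named genes were HOTAIR, the 5 largest rises and falls and the 3 smallest p in each direction among members past the threshold, the 3 highest and 3 lowest by level, RPLP0, RPLP1, RPLP2, RPL5, RPL11, RPSA, RPS6, RPS14, RPS19, RPL10, RPS4X, the 7 paralogs with their partners, FAU, RPL36AL, and the 3 smallest p of each other list. Names completing a count, RPL36A and the overlapping rows were added after their values were seen. Some genes of the rule are not reported here. Alternatives were other pseudocounts, filters, scalings and limma settings, removal of length or level trends, regional centring, added pseudogene rows, a replicate block and each library left out.
The ribosomal proteins without the paralogs, and log2 ratios of group means, were alternatives chosen after seeing the data.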

Additional observations from a re-analysis of the deposited data

How the results depend on the processing

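The median log2 change of the ribosomal protein genes, -0.31, ran from -0.38 to -0.23 over the alternatives run. Both ends came from leaving out a library. The spread between replicates limits how far leaving out 1 of 3 libraries can move the median, so this range is no independent check of it. The 14 genes that fell became 7 with no filter on low values, 5 with regional centring and 3 with the replicate block, and 5 to 18 with each library left out in turn. The 3 genes that rose became 1 with no filter, 0 with regional centring, 1 with the replicate block and 0 to 3 with each library left out. Over the 7 other translation lists and the list that holds FAU, the 24 rises became 8 and the 43 falls 16 with the replicate block, and 13 to 21 and 21 to 38 with each library left out. Same-numbered libraries did not deviate together (correlations of -0.02, 0.01 and -0.03 over 15934 genes), and shHOTAIR 1, 2 and 3 did not each correlate best with their own number, so the numbers were not taken as pairs. Among named genes with a call, regional centring reversed RPL22 (-0.0442), RPL39 (-0.22), RPL7L1 (0.0641), DKC1 (-0.12), EIF3A (0.0719), MTOR (-0.0326), NOP56 (-0.0734) and UTP14A (-0.0759). MRPS6, which had risen, also changed sign (-0.021). So did RPL10 (-0.193), RPL36A (-0.208), RPL11 (-0.137) and RPS3A (-0.242), which had not passed. The cause was not tested. Of 1026 values of 54 named genes under the alternatives, 923 stayed the same in call, 86 lost the call, 9 gained it and 8 reversed. A change of sign in a gene without a call, such as RPL10, was not counted as reversed. Precision is limited by 3 libraries per group and unknown depth.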

Other observations

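Processed pseudogenes of the ribosomal protein genes are copies made from their messages and inserted elsewhere in the genome. Of 1144 such rows 52 reached a mean of 1 FPKM, of which 2 rose and 2 fell by limma (3.85% each, against 11.5% and 12.4% of all genes tested), with a median log2 change of -0.09. RPL38P4, on chromosome 3, was at 6.86, 15.1 and 12.3 FPKM in shCtrl and 35.8, 50.2 and 30.9 FPKM in shHOTAIR and rose (log2 change 1.72, adjusted p = 0.0144), while its parent RPL38, on chromosome 17, had a log2 change of -0.30 (adjusted p = 0.159). RPL12P38 rose (log2 change 0.46, adjusted p = 0.0174), and RPL10P13 (-1.13, adjusted p = 0.0443) and RPS29P17 (-2.29, adjusted p = 0.0108) fell. RPS29P17 was listed at 0 in shHOTAIR 1 and shHOTAIR 3, at 1.44 FPKM in shHOTAIR 2 and at 4.84 to 6.09 FPKM in shCtrl. In all 4 rows the groups did not overlap. Reads of a pseudogene and its parent are alike in sequence, and their division between rows was not tested. These genes were named after their values were seen.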
